A study of Mus musculus with 18 samples.

Results

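The change of expression seen with an inhibitor of EZH2 was set against the change seen with an inhibitor of KDM6A and KDM6B in mouse embryoid bodies. The comparison was a difference of differences, the log2 change with GSK-J4 in the Mettl3 line minus the log2 change with GSK343 in the Mettl14 line. It used 12 of the 18 libraries of the series, in 4 of its 6 groups, and every gene with enough counts to be tested, 15089 of 54446 gene identifiers. Genes were then sorted by whether the inhibitor groups lay on opposite sides of their own untreated groups or on the same side.

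All 4 groups were embryoid bodies, the aggregates in which embryonic stem cells differentiate in suspension, grown for 7 days from C57BL/6 mouse stem cells. Every group carried a conditional knockout (CKO) of an m6A writer gene, Mettl14 or Mettl3, so no group in this comparison is labelled as having both writers intact. Untreated Mettl14 CKO bodies (DMSO, the solvent) were compared with Mettl14 CKO bodies given GSK343 at 5 µM, and untreated Mettl3 CKO bodies (DMSO) with Mettl3 CKO bodies given GSK-J4 at 5 µM, with 3 libraries in each group. GSK343 was used in 1 line and GSK-J4 in the other, so compound and line cannot be told apart in any value of the difference. How the deletion was induced, and whether a line is a single clone, is not given in the sources used here. Nothing in the labels ties the replicates to separate cultures. The p-values therefore rest on a spread among libraries that could be technical.

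EZH2 is the catalytic subunit of Polycomb repressive complex 2 (PRC2), which methylates lysine 27 of histone H3, and the trimethylated form, H3K27me3, marks repressed genes. KDM6A and KDM6B are the demethylases that take the mark off. GSK343 competes with the methyl donor of EZH2, and GSK-J4 is a cell-permeable ester of an inhibitor of the KDM6 enzymes, so the nominal actions of the compounds on H3K27me3 are opposite. METTL3 and METTL14 together place N6-methyladenosine (m6A) on mRNA. The mark itself was not measured in these libraries.

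The targeted genes were detected in every library. Mettl14 had 17.4, 25.01 and 20.7 CPM (counts scaled to a common library total by TMM) in the untreated Mettl14 CKO and 12.7, 18.1 and 13.4 with GSK343, while Mettl3 had 26.4, 7.04 and 18.1 in the untreated Mettl3 CKO and 7.15, 24.5 and 11.3 with GSK-J4. Counts over a whole gene do not show whether an exon was removed, so these levels do not check the deletion. Total counts ran from 721853 to 20714764 in the GSK343 libraries, from 1303697 to 8688596 in their untreated group, from 17544904 to 32540164 in the untreated Mettl3 CKO and from 3395675 to 8289423 with GSK-J4. The GSK-J4 group differed from the other 3 in quality measures. Its libraries correlated with each other at a Spearman rho of 0.802 to 0.837 (0.898 to 0.976 in the other groups), and its biological coefficient of variation was 1.15 against 0.415 to 0.556. Genes of the mitochondrial genome took 0.678 to 0.957% of its counts, against 3.10 to 4.87% elsewhere, and 11 predicted genes of satellite-like repeats took 0.374 to 0.922%, against at most 0.0570%. Of the genes tested, 1022 had no count in any GSK-J4 library. The part of these measures in the results was not tested. By marker genes the bodies held RNA of matrix-producing mesenchyme, with Col1a1 at 3806 to 7638 CPM in the 9 libraries outside the GSK-J4 group, and the stem cell genes Pou5f1 and Nanog at no more than 9.95 CPM in any library. Ttr, an endoderm marker, had no count in any of the 12. Sox17, also an endoderm marker, had 6.41, 2.27 and 9.24 CPM with GSK-J4 and at most 1.31 in any other library.

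Promoters are shown for sterol and fatty acid genes with a called difference and a match to the CCAAT box (the letters CCAAT, bound by NF-Y), and for Mt2 with the core of the metal response element (the letters TGCNCNC). Each runs 5′ to 3′ on the gene's own strand from 250 bases before to 50 after the start, from RefSeq on GRCm38.p6, and capitals mark every match on either strand, so that CCAAT on the other strand reads ATTGG. In Fasn the last 2 of its 3 matches overlap. Lss, lanosterol synthase, lies at chr10:76531355-76531654 (+ strand). Sc5d, sterol-C5-desaturase, lies at chr9:42264251-42264550 (- strand). Insig1, which retains the sterol sensor in the endoplasmic reticulum, lies at chr5:28071162-28071461 (+ strand). Srebf2, the sterol-regulated transcription factor, lies at chr15:82147019-82147318 (+ strand). Fasn, fatty acid synthase, lies at chr11:120824498-120824797 (- strand). Mt2, metallothionein 2, lies at chr8:94172368-94172667 (+ strand).
Lss: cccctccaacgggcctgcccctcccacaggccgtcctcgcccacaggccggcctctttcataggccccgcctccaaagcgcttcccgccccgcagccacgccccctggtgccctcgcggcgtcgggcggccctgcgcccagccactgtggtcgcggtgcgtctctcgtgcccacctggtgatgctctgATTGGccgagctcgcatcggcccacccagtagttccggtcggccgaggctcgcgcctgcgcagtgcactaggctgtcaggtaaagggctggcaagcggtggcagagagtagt
Sc5d: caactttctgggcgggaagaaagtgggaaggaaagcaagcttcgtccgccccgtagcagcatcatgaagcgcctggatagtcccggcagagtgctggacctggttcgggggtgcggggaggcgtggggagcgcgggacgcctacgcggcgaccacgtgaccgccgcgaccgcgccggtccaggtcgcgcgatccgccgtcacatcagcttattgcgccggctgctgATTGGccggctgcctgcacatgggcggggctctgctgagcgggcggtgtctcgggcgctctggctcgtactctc
Insig1: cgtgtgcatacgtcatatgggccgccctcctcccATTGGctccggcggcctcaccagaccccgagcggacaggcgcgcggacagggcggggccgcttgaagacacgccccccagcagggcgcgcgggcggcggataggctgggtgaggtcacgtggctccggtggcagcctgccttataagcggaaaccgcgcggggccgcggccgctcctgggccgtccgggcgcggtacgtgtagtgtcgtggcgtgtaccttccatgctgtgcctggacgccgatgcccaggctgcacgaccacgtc
Srebf2: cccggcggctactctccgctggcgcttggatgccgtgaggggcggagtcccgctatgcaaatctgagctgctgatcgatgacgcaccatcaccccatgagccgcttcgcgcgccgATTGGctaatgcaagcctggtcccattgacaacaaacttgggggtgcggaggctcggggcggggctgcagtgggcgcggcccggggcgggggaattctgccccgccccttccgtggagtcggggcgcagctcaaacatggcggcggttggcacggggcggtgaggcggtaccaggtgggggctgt
Fasn: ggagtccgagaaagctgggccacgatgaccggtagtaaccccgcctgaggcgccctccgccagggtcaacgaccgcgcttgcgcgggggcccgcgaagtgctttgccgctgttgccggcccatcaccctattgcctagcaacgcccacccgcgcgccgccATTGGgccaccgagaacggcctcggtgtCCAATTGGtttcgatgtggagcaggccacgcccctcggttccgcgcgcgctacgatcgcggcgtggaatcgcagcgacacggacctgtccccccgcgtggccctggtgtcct
Mt2: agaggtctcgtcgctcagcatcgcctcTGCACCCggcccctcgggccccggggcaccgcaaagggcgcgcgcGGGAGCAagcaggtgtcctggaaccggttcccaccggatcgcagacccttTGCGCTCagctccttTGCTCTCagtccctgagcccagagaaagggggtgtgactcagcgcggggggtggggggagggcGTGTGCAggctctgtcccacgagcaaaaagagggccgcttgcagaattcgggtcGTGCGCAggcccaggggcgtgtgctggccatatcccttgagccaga

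CCAAT was found in 78.95% of the 19 promoters of cholesterol synthesis genes (16 of the 21 genes had an entry) and in 55.56% of the 18 promoters of fatty acid genes, against 37.41% of all 32851 promoters of that length and 37.5% of the 13596 promoters of tested genes. In the genes of opposite effect as a whole the share was 36.21% where GSK343 was the higher side and 29.17% where GSK-J4 was. It was 39.13% in the 23 promoters of sterol sensing and uptake genes, and 55.88% in the 34 of ATF4 stress genes, so a high share was not confined to the lipid lists. TGCNCNC was found in 88.89% of the 9 promoters of metallothionein and zinc genes, against 51.03% of all promoters and 60.13% of those of tested genes. It was found in 80% of the 35 promoters of glycolysis and hypoxia genes and 70% of the 20 of heat shock genes. The sterol regulatory element was also searched, as exact letters, and had 0 matches in the cholesterol, fatty acid and sterol sensing lists. It matched only 0.0913% of all promoters, so 0 in lists this small decides nothing. The ATF4 element was found in 5.263, 0 and 17.39% of those lists in turn, and 32.35% of ATF4 stress promoters, against 3.954% of all promoters. The NRF2 element was found in 21.05, 16.67 and 4.348% of the same lists, against 12.39% of all promoters. A match is a description of the letters and does not show that a factor is bound.

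The inhibitor effects differed for 952 genes (6.31% of those tested) by edgeR's quasi-likelihood test on the 12 libraries at a Benjamini-Hochberg adjusted p under 0.05. The difference lay below 0, meaning lower with GSK-J4 relative to GSK343, for 820 genes (5.43%) and above 0 for 132 (0.875%), so that 86.1% of the called genes were lower. That share was 71.3% with DESeq2 (1573 called) and 70.8% with limma voom (980 called). The numbers of genes called for each inhibitor were unequal. In the fit of all 12 libraries 2242 genes (14.9%) were called for GSK-J4, 519 higher (3.44%) and 1723 lower (11.4%), while edgeR called 0 genes (0%) for GSK343. That fit shares its estimate of the spread among the 4 groups, whose own coefficients of variation ran from 0.415 to 1.15. The counts of the inhibitors are therefore not a like measure of effect size. With each line fitted alone, fewer genes were called for GSK-J4 and a few for GSK343, as given in the closing section. At an unadjusted p under 0.05 GSK343 had 335 genes (2.22%), 135 higher (0.895%) and 200 lower (1.33%), and DESeq2 called 13 and limma voom 14. With no effect at all, a p under 0.05 would be met by a share of genes near 0.05, above the 2.22% seen. The unadjusted p-values given below for GSK343, and the sets built on them, are thus descriptions and not calls. The median absolute log2 change over all tested genes was 0.34 with GSK343 and 0.87 with GSK-J4. An absolute change also grows with the spread among libraries, so these medians do not compare the strengths of the compounds.

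Across genes the inhibitor effects had the same sign in 50.8% of the tested genes and opposite signs in 48.2%, and Pearson's r across genes was 0.0381 (Spearman 0.0245), a description over 15089 genes that share libraries and are not independent replicates. Of the 952 called genes, 615 were lower with GSK-J4 and changed less than 1.5-fold with GSK343, and 76 were higher with GSK-J4 with as small a change in the other line. Effects of at least 1.5-fold in opposite directions were found for 182 called genes. Of these, 131 (0.868% of the genes tested) were on the higher side with GSK343 and the lower side with GSK-J4, and 51 (0.338%) the reverse. Called genes on the same side with unequal sizes were 73 for lower and 3 for higher. A single gene, Crabp1, was higher with GSK343 with under 1.5-fold change with GSK-J4, and the other 2, Ncl and Hnrnpm (named after their values were seen), changed less than 1.5-fold in each line. In 241 of the 952 genes no GSK-J4 library had a count, and 34 also differed between the untreated lines, in which 106 genes (0.702%) were called.

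**Figure D1:**
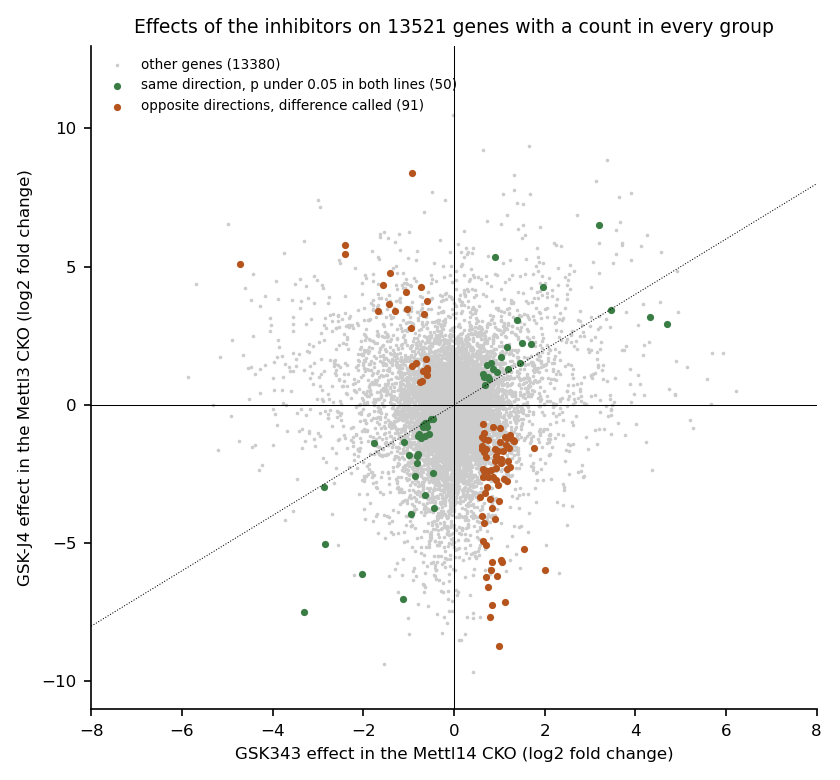
Log2 fold change with GSK343 in the Mettl14 CKO (x axis) against log2 fold change with GSK-J4 in the Mettl3 CKO (y axis) for the 13521 tested genes with a count in every group. Orange points are the 91 genes drawn whose difference was called with effects of at least 1.5-fold on opposite sides, green points the 50 with an unadjusted p under 0.05 in both lines on the same side, and the dotted line marks equal effects; most orange points lie to the lower right.

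Cholesterol synthesis genes formed the plainest opposed group. Of the 21 enzymes of the pathway, all tested, 14 had a called difference, every one lower with GSK-J4 relative to GSK343 (5.43% of all genes), and none was called higher. Their median log2 change was 0.97 with GSK343 and −1.55 with GSK-J4, against −0.03 and −0.12 over all genes tested. All 21 had a log2 change above 0 with GSK343 (46.1% of all genes) and 2, Fdps and Ggps1, above 0 with GSK-J4 (45.7%). In 19 of the 21 the GSK343 group lay above its untreated group and the GSK-J4 group below its own, against 24.7% of all genes, and in 13 the libraries did not overlap on either side, against 1.27%. Taken singly, 15 had every GSK343 library above the untreated ones (4.25%) and 17 every GSK-J4 library below them (24.3%). With GSK-J4 alone 12 were called lower (11.4% of all genes), and with GSK343 13 had an unadjusted p under 0.05, all higher (0.895%). The untreated lines were close to each other for this list, with a median log2 difference of −0.09 and no gene called.

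The summed level of the 21 genes was 1595 to 2059 CPM in the untreated Mettl14 CKO and 3277 to 3961 with GSK343. In the Mettl3 line it was 1684 to 2116 untreated and 554.3 to 903 with GSK-J4. The GSK343 libraries were thus all above, and the GSK-J4 libraries all below, the 6 untreated ones. The 7 enzymes without a called difference were Mvk, Pmvk, Mvd, Fdps, Ggps1, Sqle and Ebp, named after their values were seen, and Fdps has close pseudogene copies between which reads can be split.

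Lss, which closes squalene epoxide into lanosterol, had 36.9, 74.9 and 49.4 CPM in the untreated Mettl14 CKO libraries and 199.9, 127 and 223 with GSK343. It had 66.5, 65.2 and 62.9 in the untreated Mettl3 CKO and 18.5, 19.1 and 28.9 with GSK-J4. No treated library overlapped its untreated group in either line, which the rule that named Lss required. The log2 change was 1.76 ± 0.33 (SE) with GSK343 (unadjusted p = 6.5e-05) and −1.55 ± 0.33 with GSK-J4 (adjusted p = 0.00425), a difference of −3.31 ± 0.46 (adjusted p = 0.000335). Sc5d, the C5-desaturase, had 97.02, 76.9 and 82.6 CPM untreated and 215, 189 and 138 with GSK343. In the other line it had 75.1, 95.8 and 90.98 untreated and 24.2, 37.7 and 20.5 with GSK-J4. Here too the libraries separated on both sides, and the difference was −2.75 ± 0.41 (adjusted p = 0.000531). Acat2, which makes the first acetoacetyl unit of the pathway, had 58.9, 70.5 and 44.9 CPM untreated and 126, 119 and 96.7 with GSK343. It had 34.2, 46.8 and 33.4 untreated and 5.42, 4.54 and 5.47 with GSK-J4, lower in every treated library of that line. Its difference was −3.86 ± 0.46 (adjusted p = 9.8e-05).

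Lss was among the 10 genes of largest opposed effect, and Sc5d and Acat2 were taken by their p-values within the list. Called differences in the list numbered 9 without untreated Mettl3 CKO library 2 and at least 11 without any other single library, and 10 without the 2 libraries of under 2000000 counts, untreated Mettl14 CKO library 3 and GSK343 library 3. Lss lost its GSK-J4 call with limma voom and against a minimum log2 change of 1, and its difference was called in every alternative.

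Sterol sensing and uptake genes were opposed in part. Of 20 genes, 19 were tested, and 6 had a called difference, all lower with GSK-J4 (5.43% of all genes), 3 of them with opposite effects of at least 1.5-fold (0.868%). The list's median was 0.16 with GSK343 and −1.15 with GSK-J4. The count was 3 without untreated Mettl14 CKO library 2 or 3, GSK343 library 3 or untreated Mettl3 CKO library 1, and 2 without the libraries of under 2000000 counts. Insig1 had 108, 107 and 108 CPM untreated and 221, 243 and 244 with GSK343. It had 91.8, 113 and 113 untreated and 91.2, 21.7 and 31.5 with GSK-J4, where library 1 was just under the lowest untreated value. The difference was −2.28 ± 0.55 (adjusted p = 0.0198), and it was not called without the 2 libraries of under 2000000 counts. Srebf2 had 112, 131 and 203 CPM untreated and 220.2, 220.0 and 189 with GSK343, and 181, 156 and 178 untreated and 53, 67.6 and 66.2 with GSK-J4. Its log2 change was 0.51 ± 0.25 with GSK343 and −1.46 ± 0.25 with GSK-J4, and its difference of −1.97 was called (adjusted p = 0.00268). Apoe, an apolipoprotein, did not follow the opposed pattern, with log2 changes of −0.46 and −2.09. The call of its difference, −1.63 ± 0.40 (adjusted p = 0.0211), was lost without untreated Mettl14 CKO library 2 or 3, GSK343 library 3 or untreated Mettl3 CKO library 1 (adjusted p 0.0556 to 0.0821).

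Fatty acid synthesis and desaturation genes were opposed in larger part. Of 19 listed genes 18 were tested, and 11 had a called difference, all lower with GSK-J4 (5.43% of all genes), 8 with opposite effects of at least 1.5-fold (0.868%). Medians were 0.66 with GSK343 and −1.23 with GSK-J4, and 9 were called lower with GSK-J4 (11.4% of all genes). The summed level was 2161 to 2807 CPM untreated and 3469 to 5045 with GSK343, and 2400 to 2867 untreated and 811.6 to 1159 with GSK-J4. Scd1, the main stearoyl-CoA desaturase, had 134, 212 and 154 CPM untreated and 509, 387 and 242 with GSK343. In the Mettl3 line it had 151, 190.2 and 207 untreated and 44.4, 22.8 and 66.9 with GSK-J4. The difference was −3.23 ± 0.50 (adjusted p = 0.000828), and that of its paralog Scd2, with which it can share reads, was −3.46 ± 0.57 (adjusted p = 0.00128). Fasn had 335, 463 and 694 CPM untreated and 973, 659.7 and 807 with GSK343, where library 2 lay below the highest untreated value. It had 469, 414 and 596 untreated and 73.7, 249 and 162 with GSK-J4, and the difference was −2.32 ± 0.51 (adjusted p = 0.012). Me1, the malic enzyme that supplies NADPH, had little change with GSK343, 0.20, and −1.87 with GSK-J4, and its difference of −2.08 was called (adjusted p = 0.00462). Elovl6, an elongase, had 51.8, 36.1 and 34.1 CPM untreated and 119, 80.5 and 109 with GSK343, and 32.3, 34.4 and 39.4 untreated and 9.37, 28.5 and 4.79 with GSK-J4. Its difference was −2.62 ± 0.70 (adjusted p = 0.0343), a call lost without any untreated Mettl14 CKO library, any GSK343 library or any untreated Mettl3 CKO library (adjusted p 0.0525 to 0.105), and its GSK-J4 effect was not called (adjusted p = 0.0885). The list had 6 or 7 called differences, in place of 11, without untreated Mettl14 CKO library 1 or 2, GSK343 library 1 or 2 or any untreated Mettl3 CKO library, and 6 without the 2 libraries of under 2000000 counts. Against a minimum log2 change of 1 the fatty acid list had 2 called differences, the cholesterol list 9 and the sterol sensing list 2.

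**Figure D2:**
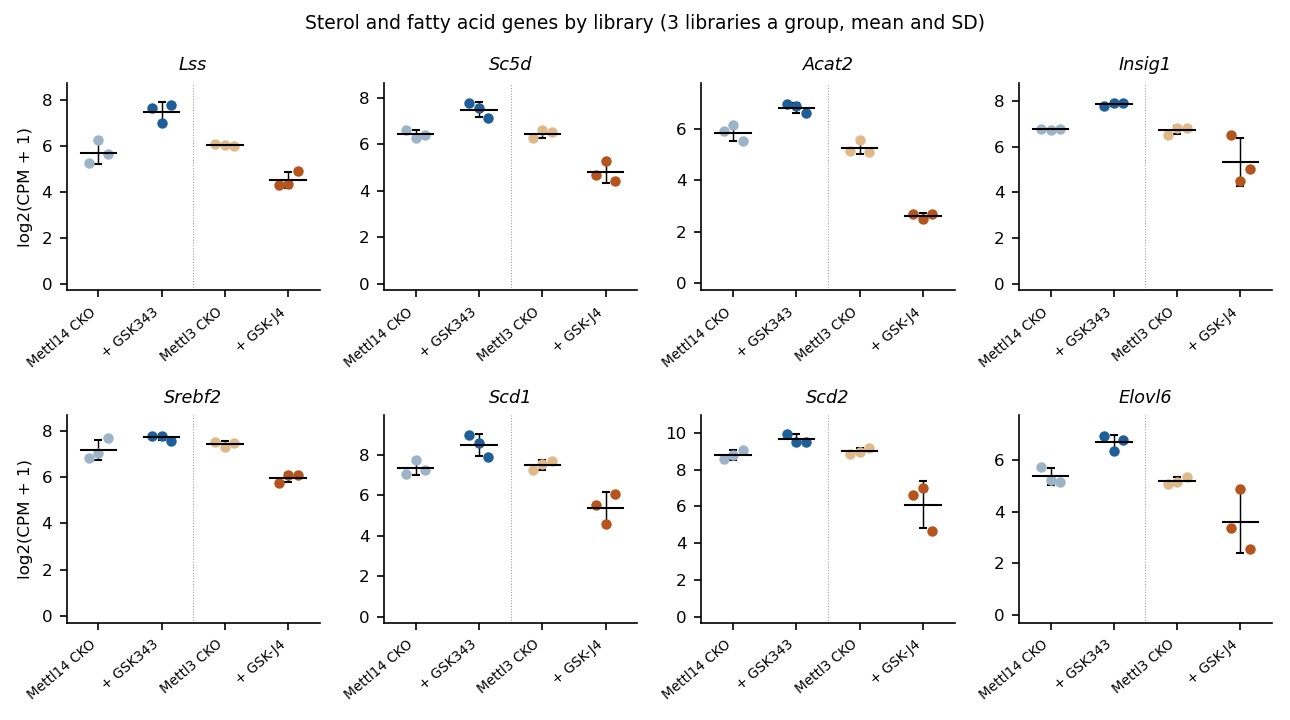
Level of 8 sterol and fatty acid genes as log2(CPM + 1) (y axis) in each of the 3 libraries of the untreated Mettl14 CKO, the Mettl14 CKO with GSK343, the untreated Mettl3 CKO and the Mettl3 CKO with GSK-J4 (x axis); points are libraries, horizontal lines are means and whiskers are SD. In every panel the orange GSK-J4 points lie below their untreated points, and the blue GSK343 points lie above theirs except in Srebf2, where 1 GSK343 library is below the highest untreated one.

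Genes of other kinds were opposed in the same sense, higher with GSK343 and lower with GSK-J4. Of 56 protein-coding genes that met every condition of the rule the 10 with the largest smaller effect were taken, and 3 of them, Podn, Afap1l2 and Chst7, had no count with GSK-J4. Podn, a small leucine-rich proteoglycan of the matrix, had 4.98, 5.16 and 3.59 CPM untreated and 16.1, 17.9 and 10.4 with GSK343. It had 18.2, 22.1 and 16.4 in the untreated Mettl3 CKO, at least 36.3-fold above the GSK-J4 group at a floor of 3 counts per library. Its difference was called (adjusted p = 0.000241). Afap1l2, a Src-binding adaptor, had 1.83, 4.85 and 0.898 CPM untreated and 5.67, 5.61 and 37.2 with GSK343, in which library 3, the shallowest, was the highest. It was at least 20.99-fold lower with GSK-J4 (adjusted p of the difference = 0.00296). Chst7, a sulfotransferase of glycosaminoglycan chains, was at least 6.38-fold lower with GSK-J4, and the call of its difference (adjusted p = 0.0258) was lost without any untreated Mettl14 CKO library, GSK343 library 1 or 3 or any untreated Mettl3 CKO library (adjusted p 0.0519 to 0.0901). The uncharacterised gene 2900026A02Rik had a difference of −2.56 ± 0.54 (adjusted p = 0.00874), called without each single library but not without the 2 libraries of under 2000000 counts or with the libraries thinned to the lowest total. Its GSK-J4 call was lost without untreated Mettl14 CKO library 1 or 2, GSK343 library 1 or 2, any untreated Mettl3 CKO library or GSK-J4 library 1 or 3 (adjusted p 0.0501 to 0.135). Grasp, a scaffold protein of neurons, and Tsku, a secreted leucine-rich protein, had differences of −3.47 and −2.76 (adjusted p = 0.019 and 0.0352). The call of Grasp was lost without untreated Mettl14 CKO library 1 or 3, GSK343 library 3 or untreated Mettl3 CKO library 2 (adjusted p 0.0524 to 0.0868), and that of Tsku without any untreated Mettl14 CKO library, GSK343 library 1 or 3 or any untreated Mettl3 CKO library (adjusted p 0.0536 to 0.145). The GSK-J4 effect of Tsku was itself not called (adjusted p = 0.0562).

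The reverse pattern, lower with GSK343 and higher with GSK-J4, was met by 8 protein-coding genes under the same rule. The 51 called genes of this pattern had a median untreated level of 1.78 CPM in the Mettl14 line and 0.675 in the Mettl3 line. With medians this low, members could pass the count filter mainly through the GSK-J4 group. Calls on its higher side were thus favoured by the filter and are not separate support for a rise. Ddx46, an RNA helicase of the spliceosome, had 213, 226 and 216 CPM untreated and 129, 145 and 128 with GSK343. In the Mettl3 line it had 135, 165 and 149 untreated and 256, 292 and 271 with GSK-J4. The treated libraries were clear of the untreated ones on both sides, which is a condition of the rule, with a difference of 1.57 ± 0.29 (adjusted p = 0.00289). Baz1a, a subunit of ISWI chromatin remodellers, had 126, 103 and 109.6 CPM untreated and 65.4, 59.9 and 78.8 with GSK343. It had 92.8, 70.6 and 91.2 untreated and 151, 158 and 138 with GSK-J4, a difference of 1.56 ± 0.34 (adjusted p = 0.0106). Gtpbp4, a GTPase of ribosome assembly, had 144, 148 and 149 CPM untreated and 131, 99.8 and 56.5 with GSK343, with library 1 close to the untreated level. With GSK-J4 it had 289.9, 238 and 230.2, against 96.5, 108 and 109 untreated (adjusted p of the difference = 0.00625). Without a low-count filter the difference of Baz1a was not called, and against a minimum log2 change of 1 none of these 3 was. The GSK-J4 call of Baz1a was lost without untreated Mettl14 CKO library 2 or any untreated Mettl3 CKO library (adjusted p 0.0577 to 0.149). That of Ddx46 was lost without untreated Mettl3 CKO library 1 (adjusted p = 0.0637).

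Rasgrf2, an exchange factor for Ras, had the largest of these differences at low counts, with 1.31, 2.50 and 6.29 CPM untreated and 0.202, 0 and 0 with GSK343. It had 0.815, 0 and 1.21 untreated and 9.86, 20.95 and 40.03 with GSK-J4 (adjusted p of the difference = 0.0103), a call lost without the 2 libraries of under 2000000 counts. Rasgrf2 met the minimum of 10 CPM only in the GSK-J4 group. Its GSK-J4 call was lost without any untreated Mettl3 CKO library or GSK-J4 library 3 (adjusted p 0.0522 to 0.0811). The remaining 4 genes each lost their call without several single libraries. Cxadr, a junction adhesion receptor, lost its call (difference 6.16, adjusted p = 0.0349) without any untreated Mettl14 CKO library, any GSK343 library, untreated Mettl3 CKO library 1 or 3 or GSK-J4 library 1 (adjusted p 0.0508 to 0.0982). Ces1f, a carboxylesterase, lost its call (difference 8.20, adjusted p = 0.0253) without any untreated Mettl14 CKO library, GSK343 library 1 or 3 or untreated Mettl3 CKO library 1 or 2 (adjusted p 0.0579 to 0.0739). Pcf11, a factor of transcript 3′ end cleavage, lost its call (difference 1.92, adjusted p = 0.0397) without any untreated Mettl14 CKO library, GSK343 library 1, untreated Mettl3 CKO library 1 or 2 or GSK-J4 library 1 (adjusted p 0.0567 to 0.105). Ccdc25, a coiled-coil protein, lost its call (difference 1.69, adjusted p = 0.027) without untreated Mettl14 CKO library 1, GSK343 library 2 or 3 or any untreated Mettl3 CKO library (adjusted p 0.0529 to 0.0987).

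Genes on the same side with both inhibitors were sought at an unadjusted p under 0.05 in each line, since no GSK343 effect passed after adjustment. There were 91 (0.603% of the genes tested), 27 higher with both (0.179%) and 64 lower with both (0.424%), beside 76 (0.504%) on opposite sides by the same criterion. Libraries clear of the untreated group in both lines were found for 60 genes on the higher side (0.398%) and 239 on the lower side (1.58%). After adjustment over all genes none of these sets held a gene, since no GSK343 effect did. GSK343 had fewer genes under 0.05 than that threshold alone passes, so the sets are descriptions. Small groups of 3 libraries also separate in some genes without any effect. With GSK343 the libraries separated in 4.25% of genes above the untreated ones and 5.26% below.

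Genes named from the same-side sets had to have libraries without overlap in both lines, so their separation is a condition of the rule. Hmga1, an architectural chromatin protein of proliferating cells, was higher with both inhibitors. It had 64.5, 54.1 and 70.97 CPM untreated and 149, 125 and 155 with GSK343, and 89.5, 78.5 and 74.6 untreated and 362, 267 and 420.4 with GSK-J4. Its log2 change was 1.18 ± 0.24 (unadjusted p = 0.000157) and 2.11 ± 0.24 (adjusted p = 2.02e-05), and the difference, 0.93 ± 0.33, was not called (adjusted p = 0.119). Tpd52, a vesicle trafficking protein, had 25.9, 25.95 and 25.2 CPM untreated and 54.02, 53.2 and 50.6 with GSK343. In the other line it had 50.3, 41.2 and 34.7 untreated and 176, 105 and 137 with GSK-J4. The treated libraries were all above their untreated groups, with log2 changes of 1.04 ± 0.30 (unadjusted p = 0.00294) and 1.73 ± 0.29 (adjusted p = 0.000736). Lmnb1, lamin B1 of the nuclear envelope, had 2.88, 4.85 and 3.59 CPM untreated and 9.76, 8.61 and 14.9 with GSK343. It had 9.94, 10.2 and 8.92 untreated and 36.5, 40.05 and 62.4 with GSK-J4, all above the untreated libraries. The GSK-J4 call of Lmnb1 (adjusted p = 0.0095) was lost without untreated Mettl3 CKO library 1 or 3 (adjusted p 0.0564 to 0.0637).

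The heat shock genes Dnajb1 and Hspa1a were in the same set. Dnajb1, a co-chaperone of HSP70, had 45.04, 62.1 and 46.7 CPM untreated and 83.2, 89.6 and 83.3 with GSK343, and 55.2, 52.6 and 53.4 untreated and 182, 128 and 131 with GSK-J4. Both treated groups were clear of their untreated groups, as the rule required, with log2 changes of 0.73 ± 0.26 (unadjusted p = 0.012) and 1.45 ± 0.26 (adjusted p = 0.00111). Hspa1a, an inducible HSP70, had 6.55, 4.53 and 5.39 CPM untreated and 32.4, 14.8 and 14.9 with GSK343. With GSK-J4 it had 585, 56.3 and 40.9, against 12.9, 10.7 and 11.3 untreated, and library 1 stood far above the other two. Reads of Hspa1a can be split with its near-identical neighbour Hspa1b. Vgll3, a TEAD cofactor, Perp, a desmosomal membrane protein, Fosl1, an AP-1 subunit, and Bicd2, a dynein adaptor, completed the named genes with GSK343 changes of 0.86, 1.45, 0.78 and 0.68 and GSK-J4 changes of 1.31, 1.53, 0.95 and 0.73. The GSK-J4 call of Perp was lost without untreated Mettl3 CKO library 1 or 3 or GSK-J4 library 2 (adjusted p 0.0548 to 0.0787), that of Fosl1 without any untreated Mettl3 CKO library (adjusted p 0.0587 to 0.117) and that of Bicd2 without untreated Mettl14 CKO library 2, GSK343 library 1, any untreated Mettl3 CKO library or GSK-J4 library 3 (adjusted p 0.0541 to 0.13). Fosl1 shares 57.2% of its exon bases with Ccdc85b on the other strand, so its counts are uncertain unless strand was used. The histone gene Hist1h4m had 0.262, 0 and 0 CPM untreated and 1.67, 1.12 and 1.49 with GSK343, and 0.533, 1.05 and 1.80 untreated and 8.14, 22.9 and 5.47 with GSK-J4, without a GSK-J4 call (adjusted p = 0.0839), and it has many near-identical copies.

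Of the 64 genes lower with both, 29 met the rule and 10 were named. C1qtnf6, a secreted C1q and TNF related protein, had 62.7, 52.8 and 68.3 CPM untreated and 23.3, 22.8 and 26.8 with GSK343. It had 61.5, 40.2 and 49.6 in the untreated Mettl3 CKO and no count with GSK-J4, at least 96.8-fold lower. The difference was called as well (adjusted p = 1.78e-05), so the sides were the same and the sizes were not. Prr9, a proline-rich protein, had 72.8, 74.9 and 46.7 CPM untreated and 26.1, 26.9 and 13.4 with GSK343. It was at least 58.4-fold lower with GSK-J4 from 23.7, 44.4 and 23.2 untreated. Spon1, a secreted matrix protein, had 11.7, 14.7 and 6.29 CPM untreated and 0.303, 1.97 and 0 with GSK343, and was at least 77.8-fold lower with GSK-J4. Fap, a surface protease of activated fibroblasts, had 8.51, 12.7 and 19.8 CPM untreated and 2.73, 1.78 and 0 with GSK343, and was at least 48.3-fold lower with GSK-J4. The Wnt antagonists Dkk1 and Dkk2 were both in the set. Dkk1 had 19.5, 3.91 and 10.8 CPM untreated and 1.11, 0.561 and 0 with GSK343, and was at least 5.80-fold lower with GSK-J4. Dkk2 had 25.4, 25.95 and 15.3 CPM untreated and 1.62, 6.46 and 0 with GSK343, and 2.16, 11.1 and 6.57 untreated and 0.247, 2.06 and 0 with GSK-J4, where the GSK-J4 change alone was not called (adjusted p = 0.124). Values of 0 in GSK343 library 3 carry little weight, because 3 counts there are 4.46 CPM. The calls of the differences of Spon1 and Fap (adjusted p = 0.0148 and 0.0131) were lost without GSK343 library 2 or untreated Mettl3 CKO library 3 (adjusted p 0.0527 to 0.0739) and without untreated Mettl3 CKO library 3 (adjusted p 0.0575) in turn.

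The other 4 named genes of the set follow, the lack of overlap in both lines being a condition of the rule. Apod, a lipid-binding secreted protein, had 26.1, 17.7 and 56.6 CPM untreated and 4.40, 12.8 and 5.95 with GSK343, and 111, 40.1 and 72.6 untreated and 0, 2.68 and 0 with GSK-J4. Vstm2b, a membrane protein of the immunoglobulin type, had 15.8, 19.2 and 17.97 CPM untreated and 3.24, 4.59 and 1.49 with GSK343 and no count with GSK-J4, at least 11.8-fold lower. Its difference (adjusted p = 0.0428) lost its call without any untreated Mettl14 CKO library, GSK343 library 1 or 2, any untreated Mettl3 CKO library or GSK-J4 library 2 (adjusted p 0.0557 to 0.147). Lvrn, an aminopeptidase, had 5.11, 9.54 and 17.97 CPM untreated and 0.303, 1.68 and 0 with GSK343, and was at least 21.2-fold lower with GSK-J4. Tppp3, a tubulin-binding protein, had 96.2, 40.96 and 53.9 CPM untreated and 26.6, 10.3 and 19.3 with GSK343, and 27.5, 27.1 and 21.1 untreated and 20.7, 5.16 and 3.93 with GSK-J4, where the change was not called (adjusted p = 0.145).

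**Figure D3:**
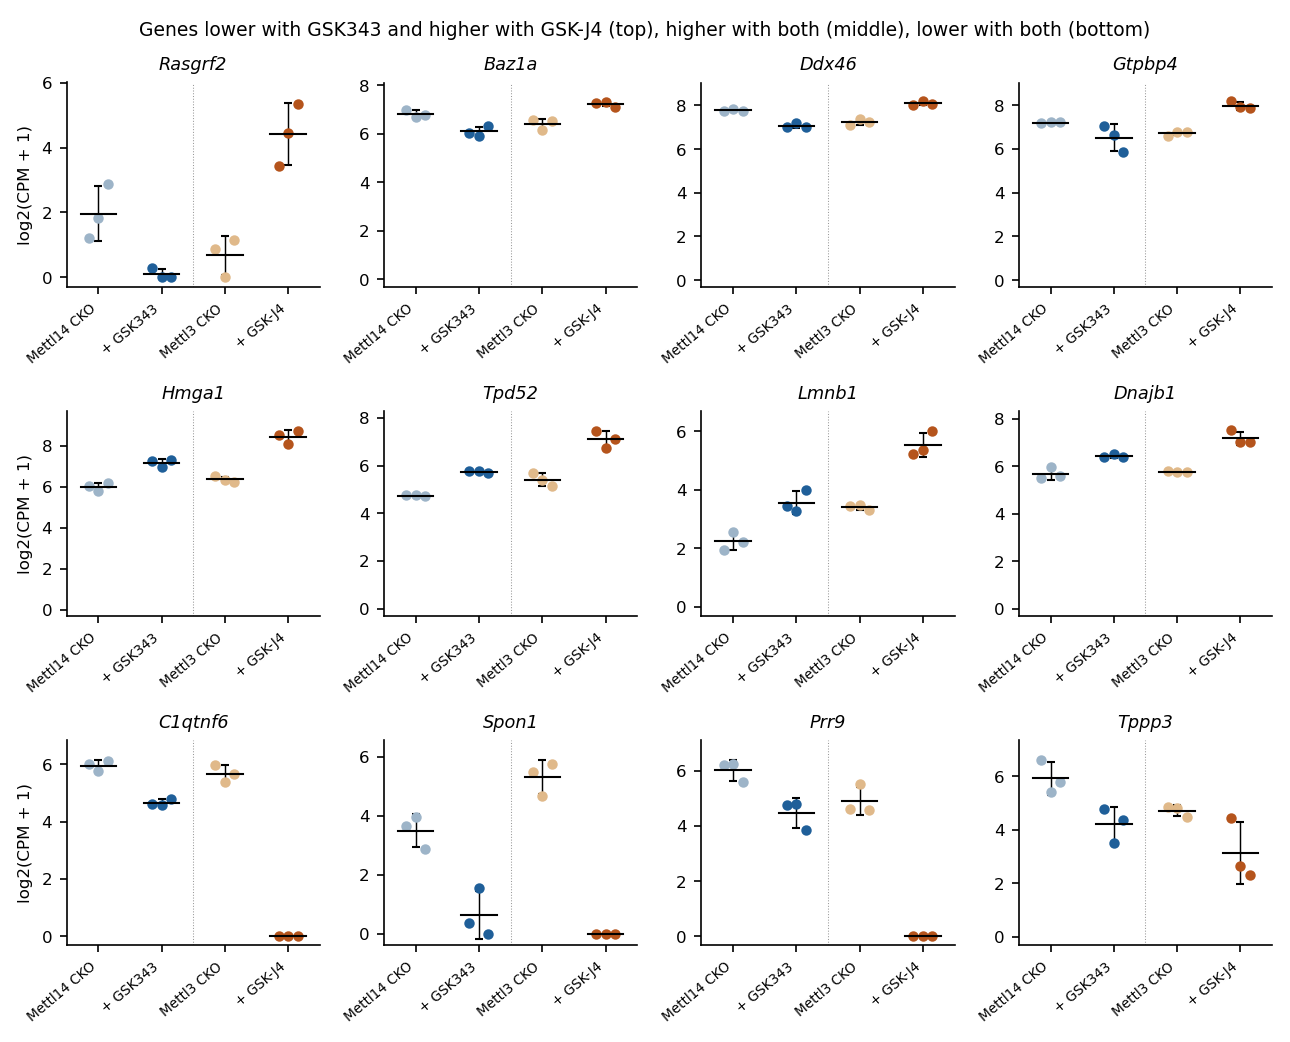
Level of 12 genes as log2(CPM + 1) (y axis) in each library of the 4 groups (x axis), with points for libraries, lines for means and whiskers for SD. The top panels hold genes lower with GSK343 and higher with GSK-J4 (Ddx46 at 128 to 145 against 213 to 226 CPM in the Mettl14 line), the middle panels genes higher with both, and the bottom panels genes lower with both, 3 of which are at 0 in all GSK-J4 libraries.

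Matrix genes were called lower with GSK-J4 while their medians with GSK343 lay near 0. Of 13 fibrillar and type VI collagen genes 9 had a called difference, all lower with GSK-J4 (5.43% of all genes), and 12 were called lower within the Mettl3 line (11.4%). The median log2 change was −0.27 with GSK343 and −4.61 with GSK-J4. Of 18 basement membrane genes 8 had a called difference and 12 were called for GSK-J4, and of 17 matricellular genes 10 and 14, all of them lower. Col1a1, the main chain of type I collagen, had 5021, 6316 and 7638 CPM untreated and 4276, 3806 and 5939 with GSK343. It had 6518, 6076 and 7005 in the untreated Mettl3 CKO and 228, 97.9 and 119 with GSK-J4. The untreated and GSK343 libraries overlapped, whereas GSK-J4 was clear of its untreated group, with a difference of −5.03 ± 0.44 (adjusted p = 5.5e-06). Tnc, tenascin C, had 1757, 2379 and 3381 CPM untreated and 2944, 2129 and 2986 with GSK343. It had 2078, 2267 and 2592 untreated and 64.8, 104 and 68.1 with GSK-J4 (difference −4.97 ± 0.40, adjusted p = 3.87e-06). Spp1, osteopontin, had 25914, 23917 and 14009 CPM untreated, 17605, 21007 and 17827 with GSK343, 15814, 17176 and 15139 in the untreated Mettl3 CKO and 2439, 3281 and 1909 with GSK-J4 (difference −2.48, adjusted p = 0.000731).

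The 6 genes that the rule took for the largest fall with GSK-J4 alone all had no count there. Nkd2, a Wnt feedback inhibitor, had 38.1, 69.1 and 64.7 CPM untreated and 66.1, 43.7 and 81.8 with GSK343, and was at least 214-fold lower with GSK-J4 from 121, 109 and 104. Sfrp2, a secreted Wnt modulator, was at least 141-fold lower, and Aspn, asporin of the matrix, at least 137-fold lower. Lrrc15, a surface protein of activated fibroblasts, was at least 114-fold lower, Eml1, a microtubule-binding protein, at least 132-fold lower, and Gpm6b, a membrane proteolipid, at least 72.4-fold lower. All 6 differences were called (adjusted p from 1.8e-06 to 0.000182).

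Markers of cell types moved with these results, but the mesenchyme markers share genes with the matrix lists. Col1a1 is in both and alone had 5021 to 7638 CPM in the untreated Mettl14 CKO, so the mesenchyme sum is not a separate measure from the collagens. Of 15 mesenchyme markers 11 had a called difference, all lower with GSK-J4, where 5.43% of all genes lay. Their summed level was 12304 to 15406 CPM untreated and 10839 to 13353 with GSK343, and 16103 to 17625 untreated and 2012 to 2359 with GSK-J4. Of the 15, 1 had no count in any GSK-J4 library, and Vim, vimentin, had 1485 to 1751 CPM there. In bulk RNA, fewer cells of a type and less RNA per cell cannot be told apart. Of 12 epithelial markers 6 were tested, 4 were called higher with GSK-J4 (3.44% of all genes) and 1, Krt8, had a called difference (0.875% on the higher side). Their sum was 0 to 11.4 CPM untreated and 0 to 0.506 with GSK343, and 2.11 to 11.98 untreated and 64.1 to 247.7 with GSK-J4, where 4 of the 12 were at 0 in all libraries. With levels this low elsewhere, the tested members could pass the count filter mainly through the GSK-J4 group. Calls on its higher side were thus favoured by the filter and are not separate support for a rise. Krt8 and Epcam were at 0 in GSK-J4 library 3, and the call of Krt8 (adjusted p = 0.04) was lost without untreated Mettl14 CKO library 1, any GSK343 library, untreated Mettl3 CKO library 2 or 3 or GSK-J4 library 1 (adjusted p 0.063 to 1). The 10 heart muscle markers summed to 15.2 to 26.9 CPM and 3.46 to 5.95 in the Mettl14 line and to 10.8 to 12.9 and 33.8 to 112 in the Mettl3 line, untreated and treated in turn, with no called difference among the 3 tested. Of 4 tested fat cell markers 3 had a called difference, all lower with GSK-J4, though the defining marker Plin1 had no count in 11 of the libraries. Cartilage and bone markers had 3 of 9 called lower, and 1 without untreated Mettl3 CKO library 1 or 3. The call of Col2a1, the collagen of cartilage, was lost without GSK343 library 1 (adjusted p = 0.602), that of Sp7, an osteoblast transcription factor, without untreated Mettl3 CKO library 1 or 3 (adjusted p 0.0517 to 0.063) and that of Dmp1, a bone matrix protein, without untreated Mettl14 CKO library 3, GSK343 library 2 or any untreated Mettl3 CKO library (adjusted p 0.0525 to 0.242). Of 3 tested endoderm markers 1 had a called difference, higher with GSK-J4 (0.875% of all genes), at levels where the filter favours that side. The 11 listed endoderm markers summed to 8.43 to 25.8 CPM in the untreated Mettl3 CKO and 8.87 to 20.1 with GSK-J4. The part of cell makeup in the results was not tested.

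Genes of the mitochondrial genome were lower with GSK-J4 relative to GSK343. Of 13 mRNAs 7 had a called difference that was lower (5.43% of all genes) and 1, mt-Nd6, one that was higher (0.875%). The list's median was 0.27 with GSK343 and −4.42 with GSK-J4. mt-Co1, a core subunit of cytochrome oxidase, had 7902, 6361 and 4254 CPM untreated and 9531, 10364 and 9103 with GSK343. It had 6322, 7645 and 6669 untreated and 179, 182 and 324 with GSK-J4, a difference of −5.56 ± 0.41 (adjusted p = 1.8e-06). mt-Nd6, the only mRNA coded on the light strand, had a difference of 2.36 (adjusted p = 0.0156) and was named after its values were seen.

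Metal and iron genes had called differences on the higher side of GSK-J4, where 0.875% of all genes lay. Of 7 tested metallothionein and zinc genes 3 had one, and 3 were called higher within the Mettl3 line (3.44% of all genes). Of 13 tested iron genes 2 were higher and 1 lower. Mt2, which binds zinc and copper, had 239.6, 69.4 and 82.6 CPM untreated and 196, 275 and 275 with GSK343. It had 76.7, 94.8 and 57.1 untreated and 3870.1, 2300.0 and 3224 with GSK-J4, with no overlap, and the difference was 4.45 ± 0.56 (adjusted p = 0.000157). Mt2 shares 73.5% of its exon bases with a gene on the other strand, Gm45774. Mt1 had a difference of 3.67 ± 0.69 (adjusted p = 0.00378), though the untreated Mettl14 CKO libraries ranged widely, 879, 209.7 and 132 CPM. Slc30a1, the zinc exporter of the plasma membrane, had 26.2, 25.6 and 18.9 CPM untreated and 32.2, 31.4 and 26.8 with GSK343, and 27.2, 33.04 and 33.3 untreated and 222, 249 and 217 with GSK-J4 (difference 2.53 ± 0.37, adjusted p = 0.00047). Hmox1, heme oxygenase 1, had 616, 868 and 648 CPM untreated, 599, 702 and 665 with GSK343, 518, 546 and 392 in the untreated Mettl3 CKO and 2002, 2265 and 2175 with GSK-J4. Its difference was 2.26 ± 0.31 (adjusted p = 0.000241). Tfrc, the transferrin receptor, was higher with GSK-J4 and Steap3, an endosomal iron reductase, lower, with differences of 2.48 (adjusted p = 0.0151) and −2.63 (adjusted p = 0.00867). The call of Tfrc was lost without untreated Mettl14 CKO library 2 (adjusted p = 0.0576). Nqo1, a quinone reductase and NRF2 target, went the other way from Hmox1, with 108, 113 and 78.3 CPM untreated and 0, 2.89 and 0 with GSK-J4, a difference of −6.26 ± 0.97 (adjusted p = 0.000764).

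The stress, glycolysis and chemokine lists each held 3 or 4 differences called higher with GSK-J4. Of 34 tested ATF4 stress genes 4 were higher with GSK-J4 relative to GSK343 (0.875% of all genes) and 2 lower (5.43%). The higher ATF4 count was 1 without library 2 of the untreated Mettl14 CKO or of GSK343, 2 without library 1 of either or untreated Mettl3 CKO library 2 or 3, and 0 against a minimum log2 change of 1. The lower count was 1 without any untreated library of either line or GSK343 library 1 or 2, and 4 without GSK-J4 library 2. Ppp1r15a, which restarts translation, had 666, 358 and 498 CPM with GSK-J4 and 126, 94.8 and 103 untreated, against 154, 123 and 219 and 148, 123 and 132 in the Mettl14 line (adjusted p of the difference = 0.00493). Aldh1l2, a mitochondrial folate enzyme, went the other way, with a difference of −3.10 ± 0.55 (adjusted p = 0.00245). Of 27 glycolysis and hypoxia genes 4, Slc2a1, Bnip3, Tpi1 and Egln3, had a called difference, all higher with GSK-J4, against 0.875% of all genes, and in 14 of the 27 every GSK-J4 library was above the untreated ones (11.1% of all genes). Slc2a1, a glucose transporter, lost its call without untreated Mettl14 CKO library 1 or 3, GSK343 library 1 or 2 or any untreated Mettl3 CKO library (adjusted p 0.0552 to 0.0889), and Bnip3, a mitophagy receptor, without untreated Mettl14 CKO library 1 or 2, GSK343 library 1 or 3, untreated Mettl3 CKO library 1 or 2 or GSK-J4 library 3 (adjusted p 0.0546 to 0.109). Tpi1, a glycolytic isomerase, lost its call without any untreated Mettl14 CKO library, GSK343 library 1 or 2, any untreated Mettl3 CKO library or GSK-J4 library 3 (adjusted p 0.052 to 0.132), and Egln3, a prolyl hydroxylase, without any untreated Mettl14 CKO library, any GSK343 library or any untreated Mettl3 CKO library (adjusted p 0.0603 to 0.129). In the untreated lines 3 genes of that list already differed (0.702% of all genes). Of 17 chemokine genes 3 had a called difference, all higher with GSK-J4. But 8 differed between the untreated lines (0.702% of all genes), whose median difference was −2.33. Cxcl1, a neutrophil attractant, shows this, with 1348, 615 and 429 CPM in the untreated Mettl14 CKO and 0.407, 0 and 2.80 in the untreated Mettl3 CKO, a log2 difference of −9.46 (adjusted p = 0.0127). With GSK-J4 it had 1986, 24.9 and 24.8, dominated by library 1. Cxcl2 had 266, 0 and 0 with GSK-J4, and without that library its difference turned from 10.52 to −2.60 (adjusted p = 0.593). Ccl2, a monocyte attractant, had 2154, 1255 and 859 CPM in the untreated Mettl14 CKO, 80.4, 43.3 and 58.6 in the untreated Mettl3 CKO and 218, 185 and 404 with GSK-J4. The difference of Ccl2, 1.94 ± 0.49 (adjusted p = 0.026), lost its call without untreated Mettl14 CKO library 1, GSK343 library 2 or 3 or untreated Mettl3 CKO library 2 or 3 (adjusted p 0.0525 to 0.0762). Among 24 tested interferon response genes edgeR called no difference in either direction, 13 had both log2 changes below 0 (29.4% of all genes) and 3 every GSK343 library below the untreated ones (5.26%).

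Genes higher with GSK-J4 alone numbered 73 under the rule, and the 6 of largest difference included repeat-related models. Nabp1, a single-stranded DNA binding protein, had 31.4, 38.3 and 57.5 CPM untreated and 47.1, 48.4 and 44.6 with GSK343. It had 12.2, 7.97 and 22.01 untreated and 159, 135 and 127 with GSK-J4, a difference of 3.15 ± 0.53 (adjusted p = 0.00142). Gm10800 and Gm10722, predicted genes over satellite-like repeats whose reads can map to many copies, had differences of 4.18 and 3.72 (adjusted p = 0.0019 and 0.00704). Vegfc, a lymphatic growth factor, and Tchh, trichohyalin, had differences of 3.24 and 3.02 (adjusted p = 0.0248 and 0.0221). The call of Vegfc was lost without untreated Mettl14 CKO library 1 or 2, GSK343 library 2 or 3 or untreated Mettl3 CKO library 2 (adjusted p 0.0542 to 0.0873), and that of Tchh without untreated Mettl14 CKO library 3, GSK343 library 1 or any untreated Mettl3 CKO library (adjusted p 0.057 to 0.0801). BC025920, which shares 61.7% of its exon bases with Gm26896 on the other strand, had a difference of 4.93 (adjusted p = 0.0407), lost without untreated Mettl14 CKO library 1 or 2, any GSK343 library, any untreated Mettl3 CKO library or GSK-J4 library 1 or 3 (adjusted p 0.0534 to 0.302).

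Crabp1, the cellular retinoic acid binding protein, was the single gene taken for GSK343 alone. It had 11.1, 12.5 and 0.898 CPM in the untreated Mettl14 CKO and 82.9, 52.9 and 114 with GSK343, all 3 above the untreated libraries, as the rule required. In the Mettl3 line it had 12.4, 3.49 and 10.3 untreated and 12.8, 4.54 and 4.79 with GSK-J4, which overlapped. The log2 change was 3.23 ± 0.73 with GSK343 (unadjusted p = 0.000437) and −0.26 ± 0.68 with GSK-J4, and the difference was −3.49 ± 0.98 (adjusted p = 0.0449). That call was lost without any untreated Mettl14 CKO library, any GSK343 library, untreated Mettl3 CKO library 1 or 3 or GSK-J4 library 2 (adjusted p 0.0553 to 0.131). Crabp2, its relative, had a difference of −1.89 ± 0.55 that was not called (adjusted p = 0.0511).

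**Figure D4:**
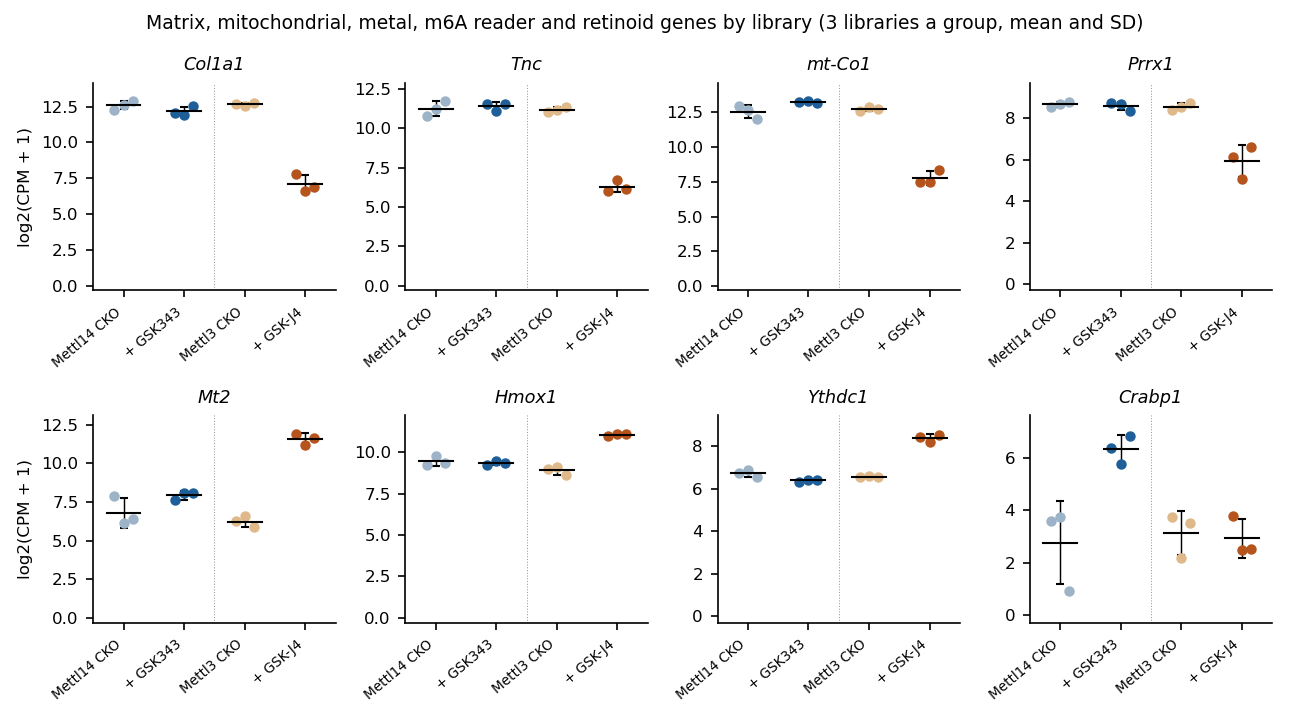
Level of 8 genes as log2(CPM + 1) (y axis) in each library of the 4 groups (x axis), with points for libraries, lines for means and whiskers for SD. Col1a1, Tnc, mt-Co1 and Prrx1 are lower and Mt2, Hmox1 and Ythdc1 higher with GSK-J4 than in the untreated Mettl3 CKO, and Crabp1 is at 52.9 to 114 CPM with GSK343 against 0.898 to 12.5 untreated.

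The enzymes that the compounds act on had no called difference in RNA. Ezh2 had 11.9, 16.9 and 7.19 CPM untreated and 7.33, 16.6 and 7.43 with GSK343, and 11.7, 21.5 and 13.4 untreated and 36.98, 50.3 and 10.9 with GSK-J4 (difference 1.27 ± 0.91, adjusted p = 0.502). Kdm6a, with a difference of 0.37 ± 0.83, Kdm6b, with −0.01 ± 0.49, and Ezh1, with 0.01 ± 0.73, were not called either (adjusted p = 0.891, 1 and 1). Of 12 tested PRC2 genes 2, Suz12 and Eed, were called higher with GSK-J4 (3.44% of all genes), and the median was −0.20 with GSK343 and 0.77 with GSK-J4. Suz12, a core subunit of PRC2, had 42.2, 39.6 and 60.2 CPM untreated, 43.5, 44.7 and 31.2 with GSK343, 34.3, 38.2 and 50.4 in the untreated Mettl3 CKO and 74.2, 115 and 144 with GSK-J4. Its difference was 1.65 ± 0.47 (adjusted p = 0.0471), a call lost without any untreated Mettl14 CKO library, any GSK343 library, any untreated Mettl3 CKO library or GSK-J4 library 3 (adjusted p 0.067 to 0.141). Among 11 tested genes of the KDM6 and COMPASS complexes and 22 of PRC1 edgeR called none for the difference or for GSK-J4.

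Of 93 developmental regulators that are known PRC2 targets 57 were tested, with 5 differences called lower with GSK-J4 and 1, Sox17, higher. That is 10.5% of those tested, against 6.31% of all genes. The lower calls were 3 without any untreated library of either line or without GSK343 library 3, and 8 without GSK-J4 library 1. The call of Sox17 was lost without untreated Mettl14 CKO library 1, any GSK343 library or any untreated Mettl3 CKO library. Their medians were 0.19 with GSK343 and −0.83 with GSK-J4. Of the named ones, Prrx1, a limb and mesenchyme homeodomain factor, had 368, 413 and 437 CPM untreated and 420.4, 417 and 330.1 with GSK343, and 332, 371 and 421 untreated and 69.5, 32.6 and 96.3 with GSK-J4 (difference −2.45 ± 0.43, adjusted p = 0.00206). Prrx2, its paralog, had a difference of −3.12 ± 0.55 (adjusted p = 0.00245), and Alx4, another mesenchymal homeodomain factor, was at least 59.8-fold lower with GSK-J4 (adjusted p of the difference = 0.000174). Irx3 had a difference of −2.79 (adjusted p = 0.0258), lost without any untreated Mettl14 CKO library, GSK343 library 3 or any untreated Mettl3 CKO library (adjusted p 0.0529 to 0.0775). The mesenchyme marker sum was low in the same GSK-J4 libraries, all 3 of the group, so the libraries do not separate it from these factors. The list of regulators also overlaps the mesenchyme markers and the cartilage and bone markers, so these are not separate measures. The part of the marker sum was not tested. Of 33 tested HOX genes 2 (6.06%) were called lower, near the 6.31% of all genes (5.43% lower). The HOX count was 0 without any single one of the 9 libraries outside the GSK-J4 group, 1 without GSK-J4 library 1 and 4 without GSK-J4 library 2. The call of Hoxb2 (difference −3.31, adjusted p = 0.0441) was lost without any untreated Mettl14 CKO library, any GSK343 library, any untreated Mettl3 CKO library or GSK-J4 library 1 or 2 (adjusted p 0.0529 to 0.138). Hoxb4 had opposite log2 changes of −1.67 and 1.23, with a difference that was not called (adjusted p = 0.0868).

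Cdkn2a, a cell cycle inhibitor locus and a known Polycomb target, had 231, 169 and 134 CPM untreated and 182, 173 and 172 with GSK343. It had 133, 127 and 111 untreated and 22.9, 32.3 and 34.7 with GSK-J4, with no overlap in the Mettl3 line only. The difference was −2.02 ± 0.36 (adjusted p = 0.00279), the single call among 7 cell cycle inhibitors (14.3%, against 6.31% of all genes). Whole-gene counts do not separate the transcripts of this locus. Of 19 genes of the m6A machinery 1 (5.26%), the nuclear reader Ythdc1, had a called difference, no more than the 6.31% of all genes. Ythdc1 had 104, 116 and 92.5 CPM untreated, 79.4, 84.8 and 84.8 with GSK343, 92.7, 93.8 and 92.6 in the untreated Mettl3 CKO and 345, 292 and 367 with GSK-J4. Its difference was 2.18 ± 0.30 (adjusted p = 0.000287).

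**Figure D5:**
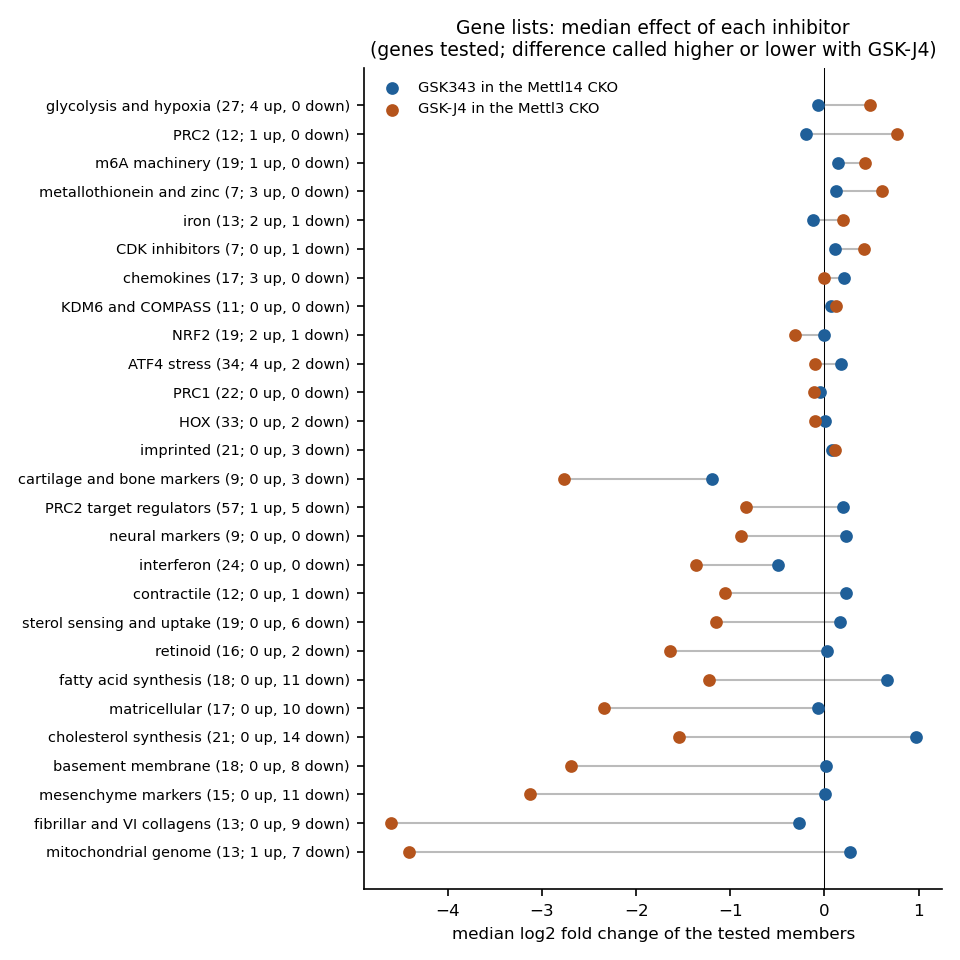
Median log2 fold change of the tested members (x axis) of the described gene lists with at least 7 tested genes (y axis, with the number tested and the number with a called difference up or down), in blue for GSK343 in the Mettl14 CKO and in orange for GSK-J4 in the Mettl3 CKO. Lists were described if their share of called differences was well above that of all genes or their medians lay apart. The Polycomb, KDM6, HOX, cell cycle inhibitor and m6A lists were drawn in any case, and other lists with little difference were left out. Cholesterol synthesis (0.97 and −1.55) and fatty acid synthesis (0.66 and −1.23) lie on opposite sides of 0, while collagens (−0.27 and −4.61) and the mitochondrial genome (0.27 and −4.42) are far from 0 on the GSK-J4 side.

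Called differences in 3 other lists were all lower with GSK-J4. They were 3 of 21 tested imprinted genes (14.3%), 2 of 16 retinoid genes (12.5%), Crabp1 and Rbp4, and 1 of 12 contractile genes (8.33%), Myl9, against 6.31% of all genes and 5.43% for the lower side. The imprinted count was 1 without untreated Mettl14 CKO library 2 or untreated Mettl3 CKO library 3, and 5 without untreated Mettl14 CKO library 3. Rbp4, the retinol carrier, lost its call (difference −9.19, adjusted p = 0.024) without any untreated Mettl14 CKO library, GSK343 library 1 or untreated Mettl3 CKO library 1 or 3 (adjusted p 0.0503 to 0.0889), and Zim1, an imprinted zinc finger gene, lost its call (adjusted p = 0.0144) without untreated Mettl14 CKO library 2 or untreated Mettl3 CKO library 3 (adjusted p 0.051 to 0.0681). None of 9 neural markers and 1 of 6 blood markers, Lyz2, had a called difference, the latter (adjusted p = 0.0256) lost without untreated Mettl14 CKO library 1 or GSK343 library 2 (adjusted p 0.0564 to 0.0578).

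At the threshold of the difference, Tcf4, Ftsj3 and Smox lay just inside at an adjusted p of 0.0493, and Nip7 (0.0502), Cyfip1 and BC029722 (both 0.0505) just outside.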

How the data were processed

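mRNA was measured in 12 libraries. Per the labels' protocols, Trizol RNA was selected for poly(A) and prepared with a SMARTer Stranded Total RNA-Seq v2 kit. The tools were CASAVA, Trimmomatic 0.38, HISAT2 2.1.0 and HTSeq, on mm10, per the submitters' processing notes. Each deposited file lists raw counts for 54446 gene identifiers, of which 54409 matched GENCODE M21, the source of symbols. Neither annotation release nor strand setting was given in the sources used here.

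Genes were filtered with filterByExpr, scaled by TMM and fitted as 4 group means with edgeR 4.0.16 (R 4.3.3), with Benjamini-Hochberg adjustment over all 15089 genes. The common biological coefficient of variation was 0.703. Where a group had no count, folds are bounds at a floor of 3 counts per library (0.0940 to 4.46 CPM), which cover counting error only. Exon overlaps come from GENCODE M21. The members, lists and rules were chosen with earlier results of these data known. The rule named protein-coding genes of at least 10 CPM: up to 10 per side with opposite or same effects and no overlap in both lines, up to 6 per side changed in 1 line, up to 4 per described list by p, and Ezh2, Ezh1, Kdm6a, Kdm6b, Mettl3 and Mettl14. Alternatives were DESeq2 1.42.0, limma 3.58.1 voom, other scalings, filters, a replicate block, depths and leaving out each library. The fit was run on simulated counts with a common spread per gene across the groups. That run cannot check the unequal spread of the real groups. Some items that these rules name are not reported here. Figures used Python 3.11.15 and matplotlib 3.10.9.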

Additional observations from a re-analysis of the deposited data

How the results depend on the processing

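For the difference of the inhibitor effects 952 genes were called, and 1573 with DESeq2, 604 with the replicate block, 1668 with all 18 libraries fitted, 505 against a log2 change of 1 and 519 without the 2 libraries of under 2000000 counts. For the GSK-J4 effect 2242 were called, and 3373 with all 18 libraries, 991 against a log2 change of 1 and 977 from the Mettl3 line alone. For the GSK343 effect edgeR called 0, and 13 with DESeq2, 14 with limma voom, 17 with no low-count filter and 3 from the Mettl14 line alone. Opposite genes were 182, and 395 with DESeq2, 84 with the replicate block, 389 with all 18 libraries, 113 against a log2 change of 1, 112 without the 2 shallow libraries and 96 at 2-fold. Genes under 0.05 in both lines on opposite sides were 76, and 200 with limma voom, 39 with the replicate block and 26 against a log2 change of 1. On the same side they were 91, and 219, 46 and 36 in the same order and 163 with all 18 libraries. The untreated lines differed in 106 genes, and in 238 with DESeq2, 590 with limma voom, 240 with no filter, 190 with all 18 libraries, 56 without the 2 shallow libraries and 42 against a log2 change of 1. The cause of these shifts was not tested.

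Leaving out 1 library gave 554 (untreated Mettl14 CKO library 2) to 1557 (GSK-J4 library 2) differences, 0 to 2 GSK343 calls and 1284 (untreated Mettl3 CKO library 1) to 2901 (GSK-J4 library 2) GSK-J4 calls. It gave 101 to 316 opposite genes, 42 to 124 under 0.05 in both lines on opposite sides, 53 to 124 on the same side and 47 to 176 between the untreated lines. Of 99 called differences of named genes 63 were called without each library and 48 under every alternative. The difference of Cxcl2 reversed to −2.60 without GSK-J4 library 1. Replicate numbers did not pair the libraries, with correlations of −0.18 to 0.08 between same-numbered libraries of a line, so the replicate block is given here alone. The median difference over all genes was −0.14, and moved by 0.14 with RLE size factors, 0.19 with library totals, 0.15 with DESeq2, −0.26 with limma voom and −0.26 with the replicate block. No list median described for the sterol, fatty acid or collagen genes changed sign. Depth limits the low genes, since 3 counts are 4.46 CPM in GSK343 library 3.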
